A study of Equus caballus with 3 samples.

Results

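*JAM2*, *JAM3* and *F11R* encode the classical junctional adhesion molecules, also named JAM-B, JAM-C and JAM-A. They were examined in cultured equine mesenchymal stromal cells (MSCs) as 3 of the 29927 gene rows that the deposited matrices hold together, and *JAM2* was chosen by its UMI counts in these same libraries, where it differed widely between sources, so that its levels by source are a description. The MSCs came from the bone marrow (BM), the peripheral blood (PB) and the adipose tissue (AT) of 1 healthy 10-year-old warmblood mare and were grown to passage 2 without any treatment or genetic change. Each source gave 1 droplet library, in which captured transcripts receive at the 3′ end a barcode of their cell and a unique molecular identifier (UMI). Kept as cells were the barcodes that had 2500 to 15000 UMIs with no more than 3% of them mitochondrial. This left 5403 AT-, 5580 BM- and 5318 PB-derived MSCs with a median of 7291, 6874 and 7750 UMIs per cell. With 1 library per source no test between sources could be made, and a difference between sources cannot be told apart from a difference between libraries. The 95% intervals given here, exact Poisson for sums of UMIs and Clopper-Pearson for shares of cells, cover counting error only. Intervals of log2 differences set the lower Poisson limit of either side against the upper limit of the other, and so are wider than 95% intervals.

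JAM proteins are cell surface molecules of the immunoglobulin superfamily with 2 extracellular immunoglobulin domains. They bind themselves and each other across cell contacts, JAM-B and JAM-C form a well-known heterophilic pair, and their cytoplasmic tails hold a PDZ-binding motif that recruits scaffold and polarity proteins such as ZO-1 and PAR-3. JAM-B also binds the integrin α4β1, and JAM-B on stromal cells of the marrow is known as a partner of JAM-C on haematopoietic stem cells. The best studied sites of JAM-B are endothelial junctions, so that markers of other cell types were examined before the members.

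The kept cells carried the stromal profile that their titles give. All 12 stromal markers, among them the collagen genes *COL1A1*, *COL1A2* and *COL3A1*, were found in at least 1% of the cells of every source, and their summed level was 29198 CPM (UMIs of a gene scaled to a common total) in AT, 26396 CPM in BM and 38554 CPM in PB. Of the 13 endothelial markers present in the matrices, *KDR* and *TIE1* were at 0 in every source, *PECAM1* had 0 UMIs in AT and BM and 5 in PB, and the list summed to 6.28, 4.77 and 5.19 CPM in AT, BM and PB. The 12 haematopoietic markers present summed to 7.75, 15.4 and 5.86 CPM, mostly *CD68*, and *PTPRC* was at 0 everywhere. Taken as a floor of 3 UMIs, a count of 0 corresponds to less than 0.0750, 0.0746 and 0.0721 CPM in AT, BM and PB. The 8 osteoblast markers present summed to 17.2, 186 and 415 CPM and the 11 markers of smooth muscle and pericytes to 1465, 1145 and 723 CPM in AT, BM and PB, with *IBSP* and *DMP1* of the former at 0 in AT and *ABCC9* and *KCNJ8* of the latter at 0 everywhere. Their part in the levels of *JAM2* was not tested. The libraries also shared barcodes. All 5318 barcodes kept in PB were present in the AT matrix, although only 37 of them were kept there, whereas 42 barcodes were kept in both AT and BM and 38 in both BM and PB.

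*JAM2*, on the plus strand of chromosome 26 of EquCab3.0, dominated the family in BM and PB and was nearly missing in AT. It had 18362 UMIs in BM, 6905 in PB and 64 in AT, which gave 456 CPM (95% interval 449.7 to 463) in BM, 166 CPM (162 to 169.9) in PB and 1.60 CPM (1.23 to 2.04) in AT. The intervals of the 3 sources did not overlap. The level in BM was 2.75 times that in PB, a log2 difference of 1.45 (1.4 to 1.51) on the log2(CPM + 1) scale used for all differences between sources. Against AT the log2 difference was 7.46 for BM and 6.0 for PB. Among 11344 genes found in at least 1% of BM or AT cells, *JAM2* ranked 1 by this difference, and among 11213 genes compared between PB and AT it ranked 2, but between BM and PB its rank was 331 of 11336. A log2 difference of at least 1 upward was reached by 6.29% of all genes for BM over PB, 8.88% for BM over AT and 6.31% for PB over AT.

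The other members differed far less from AT, whereas *F11R* differed between BM and PB by as much as *JAM2* did. *JAM3*, on the plus strand of chromosome 7, had 522, 869 and 577 UMIs in AT, BM and PB, or 13.1 CPM (12 to 14.2), 21.6 CPM (20.2 to 23.1) and 13.9 CPM (12.8 to 15). Its order was BM above AT and PB, whose intervals overlapped, with log2 differences of 0.60 for BM over PB, 0.68 for BM over AT and 0.08 (−0.15 to 0.31) for PB over AT. *F11R*, on the minus strand of chromosome 5, had 204, 356 and 88 UMIs, or 5.10 CPM (4.43 to 5.85), 8.85 CPM (7.95 to 9.82) and 2.11 CPM (1.70 to 2.60). It was highest in BM, then in AT and lowest in PB, with a log2 difference of 1.66 (1.31 to 2.00) for BM over PB, 0.69 for BM over AT and −0.97 (−1.35 to −0.59) for PB over AT, short of the log2 difference of −1 that 4.84% of all genes reached. On the log2(CPM + 25) scale the difference for BM over PB was 0.32, no longer past 1. The leading member therefore changed between the sources. Each UMI counts 1 transcript whatever the length of the gene, and on that scale *JAM2* made up 93.7% of the family's UMIs in BM and 91.2% in PB, while in AT *JAM3* made up 66.1%, *F11R* 25.8% and *JAM2* 8.10%.

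**Figure D1:**
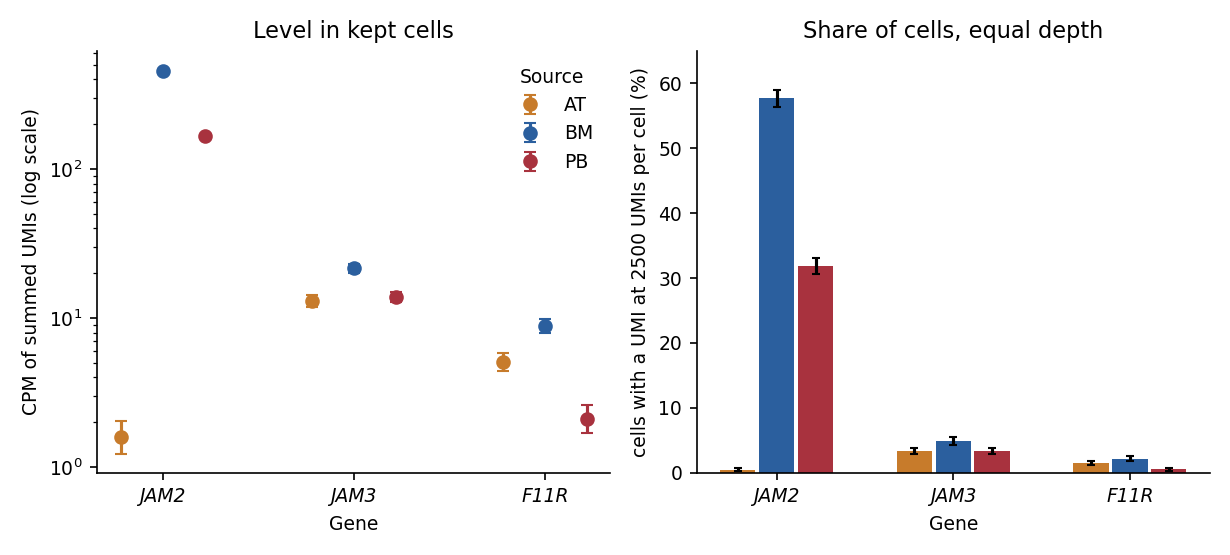
Level of the family members in the kept cells of each source (left, CPM of summed UMIs on a log axis, bars are exact 95% Poisson intervals) and share of cells with a UMI after every cell was thinned to 2500 UMIs (right, %, bars are Clopper-Pearson intervals). *JAM2* spans from 1.60 CPM in AT to 456 CPM in BM, whereas *JAM3* stays between 13.1 and 21.6 CPM and *F11R* between 2.11 and 8.85 CPM.

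The shares of cells showed the same order for *JAM2* and *F11R*. For *JAM3* the share was again highest in BM, while PB and AT were even at equal depth. With every cell thinned to an equal depth of 2500 UMIs, 57.7% (56.4 to 59.0) of the cells from BM, 31.8% (30.6 to 33.1) from PB and 0.50% (0.330 to 0.726) from AT had a *JAM2* UMI, and without thinning 78.6%, 64.2% and 1.05%. For *JAM3* the shares in BM, PB and AT were 14.0%, 10.1% and 9.01%. At equal depth they were 4.87% (4.32 to 5.47), 3.29% (2.83 to 3.81) and 3.33% (2.87 to 3.85). For *F11R* they were 5.90%, 1.60% and 3.57%, and 2.13%, 0.527% and 1.52% at equal depth. The share that free RNA gives in cells without the gene was not measured, since no cell type known to lack it was at hand, and the lowest share of *JAM2* was that of AT.

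Within BM, cells ranged widely in *JAM2*. A BM cell held 3.29 *JAM2* UMIs on average, with quartiles of 1, 2 and 5 and a maximum of 48, and 4.39% of cells had over 10 UMIs while 21.4% had 0. A PB cell held 1.30 UMIs on average, with quartiles of 0, 1 and 2 and a maximum of 13, and 35.8% of cells had 0. At 2500 UMIs per cell the variance of *JAM2* was 1.87 times its mean in BM and 1.11 times in PB, where a Poisson count has a ratio of 1. At that depth 42.3% of BM cells had no *JAM2* UMI, against 29.7% for a Poisson count with the same mean, and in PB the values were 68.2% and 66.9%. In AT the ratio was 1.32, from 64 UMIs before thinning. Without the 654 cells of the BM cluster lowest in *JAM2* the ratio in BM was 1.73, and 35.4% of cells had no UMI against 25.5% for a Poisson count. *JAM2* was thus more unevenly spread over BM cells than counting alone gives, with and without that cluster. The excess of the ratio over 1 also grows with the mean, which was 1.21 UMIs in BM and 0.401 in PB. For *JAM3* the ratio was 1.03 in BM, 1.01 in PB and 1.04 in AT, and for *F11R* 1.07, 1.06 and 0.985.

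**Figure D2:**
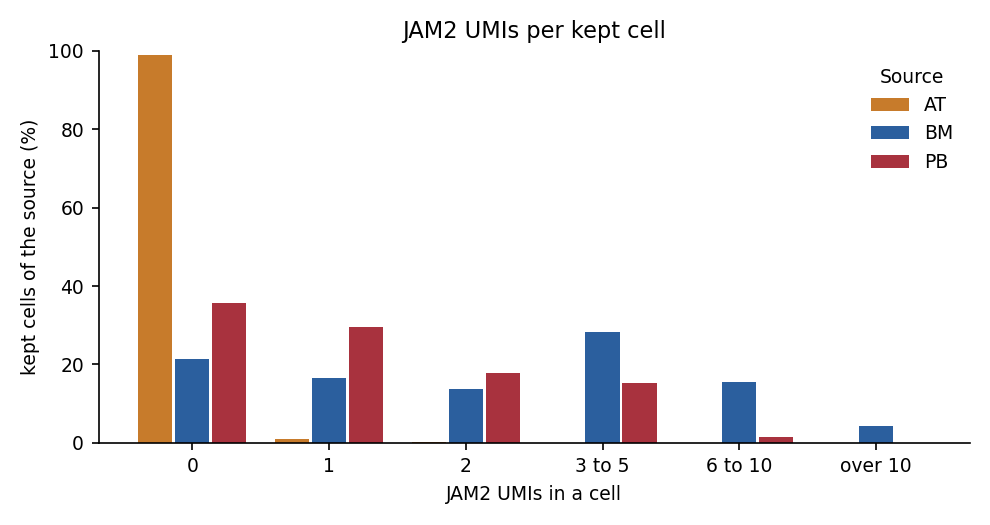
Share of the kept cells of each source (%) by the number of *JAM2* UMIs in the cell, without thinning. AT cells are at 0 in 98.9%, PB cells reach over 10 UMIs in 1 cell, and 4.39% of BM cells lie above 10.

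The level of *JAM2* went with depth in opposite ways in BM and PB. When BM cells were split into 5 bins by their UMI total, *JAM2* stood at 531, 561, 525, 471 and 320 CPM from the shallowest to the deepest bin. In PB the same bins gave 147, 159, 158, 174 and 176 CPM. The deepest BM bin therefore lay below the 4 others, and the share of its cells with a *JAM2* UMI was 68.5%, against 85.9% in the second bin. Without the cluster lowest in *JAM2* the 5 BM bins gave 554, 574, 569, 547 and 468 CPM, and the deepest had a UMI in 90.9% of cells, against 88.5% in the second. *JAM3* showed no such drop in BM, with 24.7, 20.5, 21.2, 19.5 and 22.8 CPM, while *F11R* went from 11.9 CPM in the shallowest bin to 7.86 CPM in the deepest.

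The few *JAM2* UMIs in AT were spread over 57 cells, 51 of them with 1 UMI. The 5284 kept AT cells whose barcode was in neither other matrix held 49 of the 64 UMIs, or 1.25 CPM (0.925 to 1.65). The 119 kept AT cells whose barcode was also in the BM or PB matrix held the other 15, or 18.7 CPM (10.5 to 30.9), although the 76 of these whose barcode was kept as a cell there held only 3. The level of *JAM3* in the same sets was 12.9 and 22.5 CPM. AT barcodes below 2500 UMIs stood apart, since the 5711 of them that the PB matrix also held carried 813 *JAM2* UMIs, or 165 CPM (154 to 177), close to the 166 CPM of PB itself. These barcodes also had *ALPL*, the alkaline phosphatase gene, at 305 CPM and *DES*, which encodes desmin, at 4.07 CPM, where PB cells had 326 and 0.288 CPM and kept AT cells 2.88 and 204 CPM. The 444 remaining AT barcodes below that limit had 5 *JAM2* UMIs, or 8.19 CPM (2.66 to 19.1), with *ALPL* at 1.64 and *DES* at 199.8 CPM. In *JAM2* and *ALPL* the barcodes shared with PB were thus near PB cells, while their *DES* lay above PB cells and far below kept AT cells. The remaining barcodes were near kept AT cells in *ALPL* and *DES*. Their *JAM2*, from 5 UMIs, lay above the 1.60 CPM (1.23 to 2.04) of kept AT cells. None of these low barcodes entered the levels of AT given above. With all AT barcodes of at least 500 UMIs, *JAM2* in AT was 17.6 CPM.

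Genes for known binding partners were next compared between the sources. Among the integrins that bind JAM proteins, *ITGA4*, which encodes the α4 chain, followed the order of *JAM2* with 52.3 CPM (50.1 to 54.6) in BM, 8.31 CPM (7.46 to 9.24) in PB and 1.68 CPM (1.30 to 2.13) in AT. The log2 difference of *ITGA4* was 2.52 for BM over PB and 4.32 for BM over AT. *ITGB1*, the β1 chain that pairs with α4, stood at 313, 204 and 197 CPM in BM, PB and AT. The leukocyte integrin genes *ITGAL*, *ITGB2* and *ITGAM* lay below 0.5 CPM in every source and *ITGAX* between 0.472 and 1.75 CPM, while *ITGAV* and *ITGB3* were not found under these symbols. Of the 3 integrin genes that could be compared, *ITGA4* alone passed a log2 difference of 1, upward in all 3 comparisons. Of all genes 6.29% did so for BM over PB, 8.88% for BM over AT and 6.31% for PB over AT.

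Genes for cytoplasmic partners were found in all sources, apart from *MAGI2*, which had 0 UMIs in AT. Of 23 genes for PDZ scaffolds, polarity proteins and small GTPases of the JAM pathway, 19 were found in at least 1% of BM or PB cells. For BM over PB, *MAGI1* (4.82 against 1.20 CPM), which encodes a PDZ scaffold, was higher by a log2 difference of at least 1, 1 gene was lower, and the median over the list was 0.28 beside 0.20 over all genes compared. A difference of at least 1 was seen upward in 6.29% and downward in 2.51% of all genes in this comparison. For BM over AT 3 of 20 were higher, beside 8.88% of all genes, and 0 lower, beside 2.87%. The list median was 0.20, and 0.25 over all genes. These 3 were *AFDN* (10.6 against 1.93 CPM), which encodes afadin, *CASK* (30.3 against 11.5 CPM) and *PARD6G* (3.73 against 0.900 CPM). For PB over AT 3 of 20 were higher, beside 6.31% of all genes, and 3 were lower, beside 4.84%, with a list median of −0.02 and 0.04 over all genes. *AFDN* (10.4 against 1.93 CPM) and *PARD6G* (3.65 against 0.900 CPM) were among the higher ones, and the lower ones were *PRKCI* (33.8 against 77.01 CPM), which encodes an atypical protein kinase C of the polarity complex, *MAGI1* (1.20 against 4.98 CPM) and *PARD6B* (0.432 against 2.00 CPM). *TJP1*, which encodes ZO-1, stood at 24.8, 25.9 and 20.4 CPM in AT, BM and PB, and *PARD3* at 33.5, 36.7 and 37.5 CPM, both short of a log2 difference of 1 in every comparison. The tetraspanin gene *CD9* stood at 213, 297 and 409 CPM.

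Other junction genes were scarce. The 8 relatives of the JAM genes in the CTX immunoglobulin group, such as *CXADR*, *CLMP* and the endothelial *ESAM*, summed to 2.43, 3.75 and 4.04 CPM in AT, BM and PB, so that each sum lay below every level of *JAM3*. Of 12 further tight junction genes *CLDN12* stood at 7.30, 6.64 and 5.69 CPM in AT, BM and PB and was the highest in AT and BM, and *OCLN* had at most 0.0721 CPM. *CGNL1*, which encodes paracingulin, was the only one of these past a log2 difference of 1, with 0.425 CPM in AT, 3.13 CPM in BM and 5.84 CPM in PB. It was higher in BM and in PB than in AT, beside 8.88% and 6.31% of all genes.

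Genes for factors of the marrow niche were higher in BM in part. Of 14 such genes compared between BM and PB, 5 were higher and 1 was lower in BM by a log2 difference of at least 1, beside 6.29% and 2.51% of all genes, with a median of 0.69 against 0.20 over all genes. *CXCL12*, the chemokine that retains haematopoietic stem cells, stood at 25.4 CPM in BM, 0.553 CPM in PB and 2.55 CPM in AT. *FOXC1*, a transcription factor of the cells that make it, stood at 16.9, 2.57 and 1.05 CPM. *TGFB1* was the gene lower in BM, at 34.0 CPM against 73.7 CPM in PB. For BM over AT 6 of 14 were higher, beside 8.88% of all genes, and 0 lower, beside 2.87%. The 16 niche genes present summed to 450 CPM in AT, 796 CPM in BM and 853 CPM in PB, mostly *PRRX1* (342, 593 and 677 CPM). *LEPR* had 0 UMIs in every source, and *EBF3* was highest in AT, at 13.5, 10.9 and 4.06 CPM in AT, BM and PB.

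Cells of each source were clustered with the 3 members left out, so that the levels of these across clusters are a description of groups set by other genes. In BM, *JAM2* stood between 433 and 604 CPM in 5 of 6 clusters. The highest, cluster 3, held 1664 cells with *DPT*, *INSC*, *SP7*, *OMD* and *ALPL* among its leading genes. The other cluster, number 4, held 654 cells at 33.4 CPM (29.0 to 38.3) against 533 CPM in all other BM cells. At equal depth 5.96% of its cells had a *JAM2* UMI against 64.6% of the rest. The cluster held 562 of the 1196 BM cells without a *JAM2* UMI, or 47.0%. It was the deepest in UMIs, with a median of 9464 per cell, and 89.8% of its cells were called in S or G2M phase. Its leading genes included *CALCA*, *EMB*, *HMX2*, *HMX3*, *IGFBP5* and *IGFBP3*, and 78.9% of its cells had a UMI of *HMX1*, *HMX2*, *HMX3* or *IGFBP5*. The 68 BM cells that had such a UMI outside this cluster held *JAM2* at 447 CPM.

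The other members did not share this drop. *JAM3* in cluster 4 was 26.8 CPM (22.8 to 31.2), the highest of the 6 clusters, whose lowest was 18.7 CPM (16.2 to 21.4) in cluster 3. *F11R* was 11.5 CPM (8.99 to 14.5) in cluster 4 and reached 14.8 CPM (12.4 to 17.6) in cluster 0, led by *EDNRA* and *CXCL12*, while cluster 2, led by *TAGLN3* and *F3*, had 4.71 CPM (3.39 to 6.36). *ITGA4* did share it, at 4.86 CPM (3.28 to 6.94) in cluster 4 and between 40.3 and 83.6 CPM in the 5 others. In AT, *JAM2* lay between 0.463 and 3.41 CPM over 7 clusters.

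Cluster 4 was next set beside AT, the source that was also low in *JAM2* and *ITGA4*. The genes shown are the 10 with the largest log2 difference each way between AT and the other BM cells among genes in at least 25% of the cells of the higher side with the 3 members left out, a rule chosen after values had been seen. Of the 10 genes higher in AT, *IGFBP5* stood at 258 CPM in AT, 97.9 CPM in cluster 4 and 1.38 CPM in the other BM cells, the transcription factor gene *EMX2* at 56.7, 32.3 and 0.293 CPM, and *DES* at 204, 25.6 and 1.32 CPM. Others of them were not raised to a like degree, such as *MFAP4* at 179, 0.973 and 0.381 CPM, *FOXS1* at 68.8, 2.92 and 1.03 CPM and *ASPN* at 303, 30.8 and 20.5 CPM. Of the 10 genes lower in AT, *DLX5* stood at 0.30, 4.05 and 69.2 CPM, *COL8A1* at 0.875, 9.73 and 124 CPM and *ALPL* at 2.88, 7.46 and 112 CPM, but *MGLL* at 7.98, 207 and 209.6 CPM. In the genes named here the cluster lay between AT and the other BM cells, nearer to AT in some and not in others. Nearness to the cluster was not particular to AT. On the log2(CPM + 1) scale PB was nearer than AT in *EMX2* (21.6 CPM), *COL8A1* (12.4 CPM), *MFAP4* (1.61 CPM), *FOXS1* (4.93 CPM) and *MGLL* (35.1 CPM). AT was nearer in *IGFBP5*, *DES*, *ASPN*, *DLX5* and *ALPL*, which stood at 0.0240, 0.288, 389, 41.0 and 326 CPM in PB. Of its 654 barcodes, 16 were found in the AT matrix and 9 were kept as cells there.

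In PB, *JAM2* stood between 102 and 262 CPM over 7 clusters, and no cluster was near the level of cluster 4 in BM. The lowest, at 102 CPM (90.5 to 114), held 636 cells with a median of 3762 UMIs, less than in any other PB cluster. The highest, at 262 CPM (245 to 280.0), held 376 cells and was led by *PIGK*, *PLTP* and *LAMP2* among genes with a symbol. A cluster of 748 cells, 91.2% of which were called in S or G2M phase, stood at 180.0 CPM (170.1 to 190.4).

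**Figure D3:**
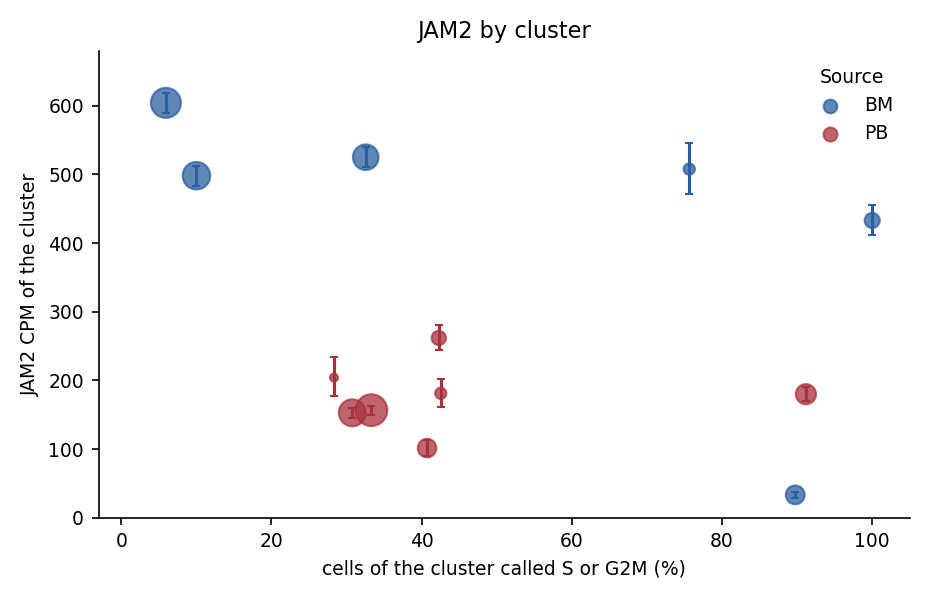
*JAM2* level of each cluster (CPM of summed UMIs, bars are exact 95% Poisson intervals) against the share of its cells called in S or G2M phase (%) for BM and PB, with the area of a point scaled to the number of cells. In BM 1 cluster with 89.8% of cells in S or G2M lies at 33.4 CPM, while the cluster at 100% lies at 433 CPM.

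Genes that went with *JAM2* across the cells of a source were sought in cells of like depth. Within 10 bins of depth, the cells with the highest share of *JAM2* among their UMIs (JAM2-high, the top of 3 equal groups) were set against those with the lowest share (JAM2-low). In BM these were 1860 cells each, with a median of 6874 UMIs in both, and *JAM2* itself stood at 975 and 52.3 CPM. Of 5607 genes found in at least 10% of BM cells, 131 (2.34%) were at least 1.5-fold higher and 244 (4.35%) at least 1.5-fold lower in JAM2-high cells. Pearson's r with *JAM2*, from log(1 + UMIs) of the 5580 cells at 2500 UMIs each, ran from −0.29 to 0.32. All pairs of counts came from 1 library and the same cells, so that these values describe that library.

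The genes with the highest r in BM were abundant, each found in at least 93.6% of cells. Counting error lowers the r of scarce genes, so that this abundance can come from the measure. *LUM*, which encodes the matrix proteoglycan lumican, had the highest r, 0.32, with 4998 CPM in JAM2-high and 3046 CPM in JAM2-low cells. *CTHRC1*, a secreted regulator of collagen, stood at 4678 and 2605 CPM (r = 0.22), and the tetraspanin gene *CD63* at 2727 and 1735 CPM (r = 0.22). *ITM2B* (1222 and 724 CPM), *IGFBP6* (916 and 572 CPM), *RABAC1* (2393 and 1830 CPM), *B2M* (1339 and 948 CPM), *LAPTM4A* (880 and 559 CPM) and *COL1A2* (4188 and 3343 CPM) also belonged to the 10 highest, together with ENSECAG00000024343, which has no symbol in the matrices. By fold, and named after their values were seen, *UCHL1* (80.9 and 29.7 CPM, r = 0.09), *INSC* (41.3 and 15.6 CPM) and *SERPINF1* (101 and 41.6 CPM) led. Both osteoblast markers that could be compared were at least 1.5-fold higher, beside 2.34% of all genes. These were the transcription factor gene *SP7* at 30.0 against 16.2 CPM and *ALPL* at 124 against 62.1 CPM. Of 5 niche factor genes compared, *CXCL12* (29.7 and 17.6 CPM) and *TGFB1* (40.7 and 26.7 CPM) were at least 1.5-fold higher, beside 2.34% of all genes. None was lower, beside 4.35% of all genes. The median log2 difference of the 5 was 0.50 against −0.03 over all genes.

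At the other end of the list, ENSECAG00000022273 had the lowest r, −0.29, with 104 CPM in JAM2-high and 550.2 CPM in JAM2-low cells. *H2AFZ*, which encodes a histone variant, stood at 712 and 1491 CPM, *STMN1*, which encodes a regulator of microtubules, at 400 and 851 CPM, and *UBE2C*, which encodes a ubiquitin-conjugating enzyme of mitosis, at 104 and 242 CPM. *ACTG2*, which encodes enteric smooth muscle actin, stood at 80.0 and 334 CPM, and the calcium pump gene *ATP2B1* at 56.5 and 181 CPM. The 4 others of the lowest 10 were Ensembl identifiers without a symbol. In the JAM2-low cells 25.5% had a UMI of the *HMX* genes or *IGFBP5*, against 1.61% of JAM2-high cells, and the summed level of these genes was 91.8 and 2.84 CPM. They had been listed as a mark of BM cells low in *JAM2*, so that their excess there was set in advance.

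Most of these differences no longer passed 1.5-fold without cluster 4. Without its cells 16 genes were higher and 16 lower by 1.5-fold, of which 12 and 7 had also passed in all kept cells. *JAM2* itself then stood at 1056 CPM in JAM2-high and 117 CPM in JAM2-low cells. This contrast is narrower than in all kept cells, which can itself lower such counts. *LUM* then had an r of 0.18, *CD63* 0.18, *ITM2B* 0.16 and *CTHRC1* 0.12, whereas *COL1A2* fell to 0.02, *UBE2C* to −0.04 and *STMN1* to −0.02. ENSECAG00000022273 was at −0.13. The largest folds upward among the remaining cells, again picked from their values, were those of *PLEKHA5* (33.1 and 18.2 CPM), *INSC* (43.8 and 25.9 CPM) and *UCHL1* (85.3 and 51.7 CPM), and *OMD*, *DPT*, *SERPINF1* and *CD9* were among the 16. *SP7*, *ALPL*, *CXCL12* and *TGFB1* were not among them. Downward the largest after ENSECAG00000022273 (87.5 and 205.9 CPM) were *COL11A1* (24.9 and 51.1 CPM) and *ACTG2* (76.2 and 141 CPM).

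Neither *JAM3* nor the 2 integrin genes compared, *ITGB1* and *ITGA4*, differed by 1.5-fold between JAM2-high and JAM2-low BM cells. Most genes did not either, since 2.34% of all genes were higher and 4.35% lower by that fold. *JAM3* had an r of −0.02, with 20.3 CPM in JAM2-high and 23.3 CPM in JAM2-low cells, and *JAM3* and *F11R* together stood at 27.9 and 34.1 CPM. *ITGB1* was even at 307 and 317 CPM, and *ITGA4* stood at 57.0 and 43.7 CPM, a log2 difference of 0.38 (0.16 to 0.59), with an r of 0.02. Of 9 cytoplasmic partners compared, 1 passed 1.5-fold, *PRKCI*, at 48.1 and 87.5 CPM, beside 4.35% of all genes lower. Without cluster 4 *PRKCI* was not among the genes lower by 1.5-fold.

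**Figure D4:**
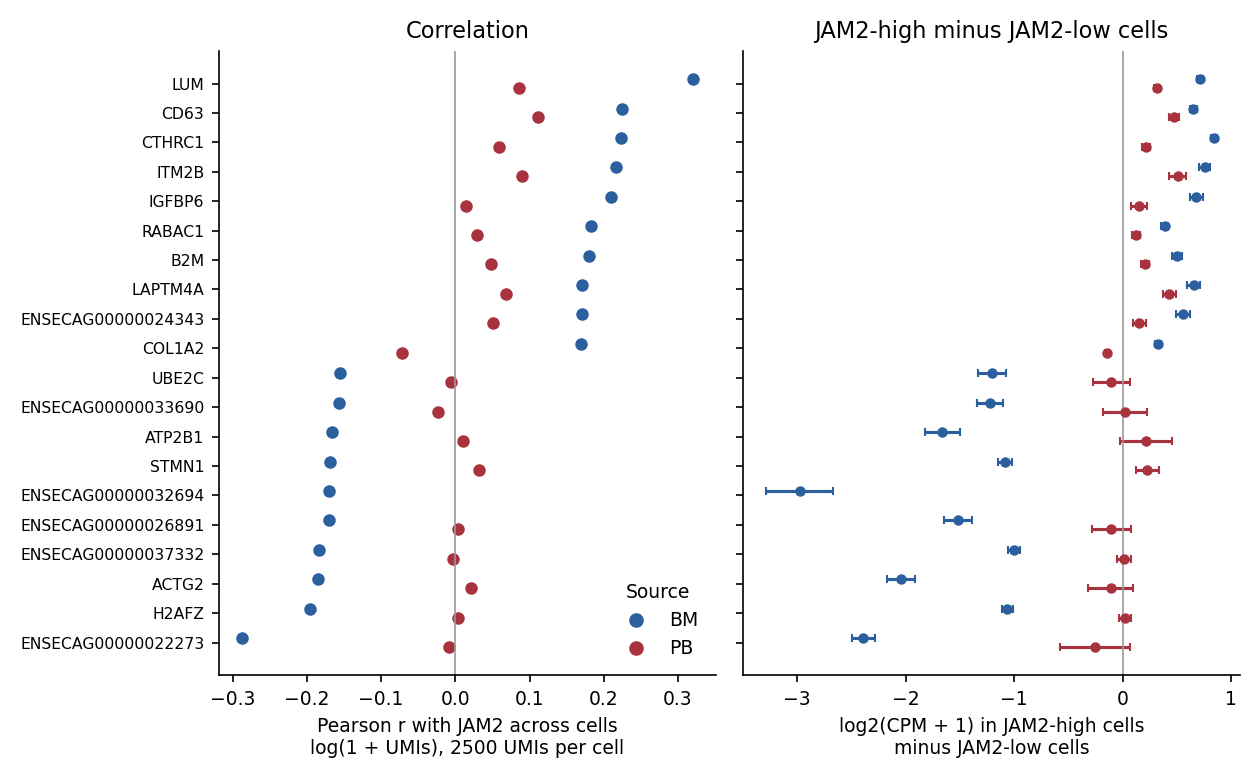
The 10 genes with the highest and the 10 with the lowest r with *JAM2* in BM, with r across cells (left) and the log2 difference between JAM2-high and JAM2-low cells (right), beside the values of PB where the gene was found in at least 10% of PB cells. Bars on the right combine the opposite 95% Poisson limits of both groups. BM values run from −0.29 to 0.32 in r, while the PB values of the same genes lie between −0.07 for *COL1A2* and 0.11 for *CD63*.

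In PB few genes passed 1.5-fold, but *JAM2* was spread there little beyond counting error. At equal depth a PB cell held 0.401 *JAM2* UMIs on average, with a variance 1.11 times the mean. Of the JAM2-low cells 88.1% had no *JAM2* UMI in PB, against 64.3% in BM. Whether fewer genes go with *JAM2* in PB than in BM can therefore not be told from these values. JAM2-high and JAM2-low PB cells numbered 1770 and 1778, with *JAM2* at 355 and 15.2 CPM and a median of 7749 and 7750 UMIs. Of 5343 genes, 2 (0.0374%) were at least 1.5-fold higher, *DHRS7* (55.5 and 34.4 CPM) and ENSECAG00000036994 (19.6 and 11.4 CPM), and 0 (0.00%) were lower. Values of r ran from −0.12 to 0.11 over 5318 cells, with 1 gene at 0.1 or above and 1 at −0.1 or below, and correlations this weak in sparse counts are given only as a list. The highest were *CD63* (1461 and 1054 CPM), *ITM2B* (467 and 328 CPM) and *LUM* (5107 and 4110 CPM), followed by *CD9* (484 and 350.1 CPM) and *S100A10* (2114 and 1750 CPM). Of the 10 highest genes of BM and PB 3 were shared, *CD63*, *ITM2B* and *LUM*, which is 30% of each list, and of the 10 lowest 0. The measure favours abundant genes in both sources, which can add to such sharing. The lowest in PB were led by *RPLP0* (9199 and 10069 CPM) and held further genes of ribosomal proteins, which summed to 210627 CPM in JAM2-high and 225883 CPM in JAM2-low cells. In BM their sums were 184347 and 187405 CPM. *JAM3* stood at 16.1 and 12.4 CPM in PB with an r of 0.02.

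*JAM2* and cycling were related in BM and hardly in PB. In BM, *JAM2* stood at 539 CPM (530.3 to 548) in the 3762 cells called in G1, 343 CPM (331 to 356) in the 1025 called in S and 280 CPM (267 to 293) in the 793 called in G2M. The log2 difference between S or G2M and G1 was −0.77. In PB the levels were 161 CPM (156 to 167), 174 CPM (166 to 183) and 169 CPM (160 to 179), a log2 difference of 0.09. With phases called after thinning PB had 172 CPM (166 to 177) in S or G2M and 159 CPM (154 to 165) in G1, which did not overlap. In AT they were 1.33, 2.06 and 1.89 CPM, with overlapping intervals. Phases were called from the S and G2M lists of Seurat, of which 41 of 43 and 52 of 54 genes were in the matrices.

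**Figure D5:**
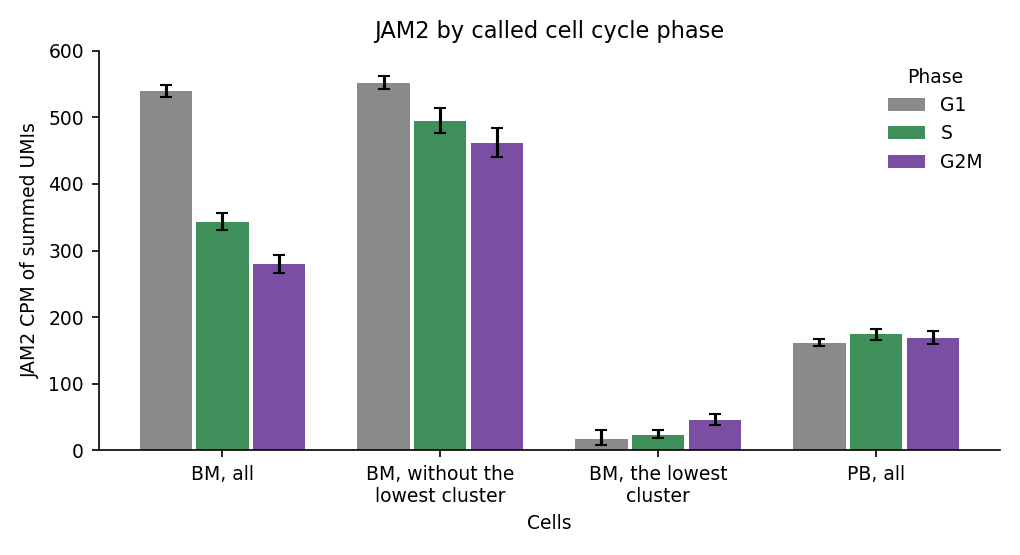
*JAM2* level (CPM of summed UMIs, bars are exact 95% Poisson intervals) by called cell cycle phase in BM, in BM without and within the cluster lowest in *JAM2*, and in PB. The fall from 539 CPM in G1 to 280 CPM in G2M in all BM cells becomes one from 552 to 462 CPM without that cluster, and PB lies between 161 and 174 CPM.

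The sums of the phase lists went the same way. JAM2-high cells of BM had 916 CPM of the S list and 2762 CPM of the G2M list, and JAM2-low cells 1657 and 4330 CPM. Of the genes compared, 19 of 24 of the S list and 18 of 25 of the G2M list were at least 1.5-fold lower in JAM2-high cells, beside 4.35% of all genes. None was higher, beside 2.34% of all genes. Examples are *MCM5*, a replication helicase gene (25.8 and 69.3 CPM), *RRM2* (22.7 and 60.4 CPM), *CDK1* (27.0 and 70.7 CPM) and *CCNB1* (34.4 and 91.1 CPM). In S or G2M were 23.7% of JAM2-high cells, 28.3% of the cells between and 45.7% of JAM2-low cells. In PB the S list stood at 685 and 626 CPM and the G2M list at 2285 and 2208 CPM, and 44.4% and 41.8% of cells were called in S or G2M. There 0 of 11 and 0 of 14 genes passed 1.5-fold in either direction. Over all PB genes the shares were 0.0374% higher and 0.00% lower, so that these counts say little about the lists.

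The relation in BM was much smaller outside cluster 4. There *JAM2* stood at 552 CPM in G1, 495 CPM in S and 462 CPM in G2M, the S list at 886 and 965 CPM and the G2M list at 2664 and 2830 CPM in JAM2-high and JAM2-low cells, and 22.4% and 26.9% of these were called in S or G2M. Inside cluster 4 the CPM were highest in G2M, with *JAM2* at 16.6 CPM (7.96 to 30.5) in 67 G1 cells, 23.5 CPM (18.1 to 30.1) in 281 S cells and 46.0 CPM (38.6 to 54.6) in 306 G2M cells. At equal depth the shares of these cells with a *JAM2* UMI were 4.48% (0.93 to 12.5), 5.34% (3.02 to 8.65) and 6.86% (4.30 to 10.3), with overlapping intervals. The 421 cells of cluster 5, all called in S or G2M and led by *CENPF* and *TOP2A*, had *JAM2* at 433 CPM (412 to 455). This was below the remaining clusters, which lay between 498 and 604 CPM. High cycling and low *JAM2* were thus found together in cluster 4 but not in the other cycling BM cells to that degree. Cluster 4 had been picked as the cluster lowest in *JAM2*, and leaving such a cluster out can itself lower the relation.

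*JAM3* was higher in S or G2M cells in BM and AT, but not under every way of calling phases. Its level in S or G2M cells against G1 cells was 24.7 CPM (22.2 to 27.3) against 19.8 CPM (18.1 to 21.6) in BM, 16.3 CPM (14.4 to 18.41) against 10.9 CPM (9.61 to 12.3) in AT and 14.6 CPM (12.9 to 16.5) against 13.3 CPM (11.9 to 14.9) in PB, where the intervals overlapped. With phases called after thinning the intervals also overlapped in BM, at 23.2 CPM (21.0 to 25.6) against 20.4 CPM (18.6 to 22.4), and in AT, at 13.7 CPM (12.2 to 15.4) against 12.2 CPM (10.7 to 13.9). Without cluster 4 they overlapped in BM, at 22.7 CPM (19.8 to 26.0) against 19.9 CPM (18.2 to 21.7). For *F11R* the intervals of both classes overlapped in each source, with 7.73 against 9.51 CPM in BM, 4.44 against 5.55 CPM in AT and 2.03 against 2.17 CPM in PB. Without cluster 4 they did not overlap in BM, at 5.69 CPM (4.26 to 7.44) against 9.37 CPM (8.21 to 10.7), nor without cells with *HMX* or *IGFBP5* UMIs, at 6.03 CPM (4.61 to 7.74) against 9.37 CPM (8.2 to 10.7).

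Few cells held UMIs of more than 1 member. *JAM2* and *JAM3* were found together in 596 BM cells (10.7%), 387 PB cells (7.28%) and 7 AT cells (0.130%). With cells weighted to equal depth, *JAM3* was found in 14.4% of BM cells with and 15.3% without a *JAM2* UMI, in 12.2% and 11.04% without cluster 4, where the order turned, and in 9.65% and 8.16% in PB. *F11R* was found in 5.69% and 7.44% in BM, in 4.93% and 5.36% there without cluster 4, and in 1.64% and 1.60% in PB. *ITGA4* was found in 30.7% of BM cells with a *JAM2* UMI and 17.0% of those without, but without cluster 4 in 26.6% and 30.1%, so that the order turned. In PB *ITGA4* was found in 4.77% and 6.89%. *JAM3* and *F11R* were found together in 40 BM, 23 AT and 6 PB cells.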

How the data were processed

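Reads of 3 droplet libraries, made with the 3′ kit of 10x Genomics, had been mapped to EquCab3.0 with Cell Ranger and counted per gene with ESAT by the authors, and the deposited values are whole-number UMI counts without normalization. Each sample's title gave its source, because the source name is that of blood mononuclear cells throughout. The UMI and mitochondrial limits follow the methods of the study. The multiplet caller named there was not run, and an alternative left out 5% of cells by Scrublet score.

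Levels are CPM of summed UMIs of kept cells. Clusters were made in Scanpy 1.11.5 from 3000 variable genes without the 3 members, with 20 principal components and Leiden at resolution 0.6. Phases were called with Seurat 5.3.0 in R 4.3.3, TMM factors came from edgeR 4.0.16 and intervals from SciPy 1.17.1. The computation of differences between JAM2-high and JAM2-low cells was tested on simulated data. There the test gene was set widely apart between high and low cells, and only abundant genes were changed. A *JAM2* spread as narrow as that in PB and genes of low level were therefore not covered. The named genes are the members, the 10 genes with the highest and the 10 with the lowest r in BM and in PB and fixed lists of partners and markers, except where stated. The members and lists were chosen with earlier results of these data known, and the *HMX* genes and *IGFBP5* were listed as a mark of BM cells low in *JAM2*. No name was found for Ensembl identifiers that lack a symbol. The result of 1 gene of the partner list is not reported here. Adhesion, RT-PCR and knockdown experiments were not analysed here.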

Additional observations from a re-analysis of the deposited data

Results flagged for a closer look

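The difference of *JAM2* between cycling and G1 cells had opposite signs in BM and PB. The log2 difference of *JAM2* between cells called in S or G2M and cells called in G1 was −0.77 in BM and 0.0909 in PB, where the intervals of both classes overlapped, at 172 CPM (166 to 178) and 161 CPM (156 to 167). With phases called after thinning they did not overlap, at 172 CPM (166 to 177) and 159 CPM (154 to 165). With 1 library per source the difference between BM and PB was not tested. In BM 587 of 1818 cells in S or G2M belonged to cluster 4, and without that cluster the value was −0.20.

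*JAM2* was also found in barcodes of the AT matrix below the lower UMI limit, which the levels of AT leave out. The 5711 AT barcodes below 2500 UMIs that the PB matrix also held carried *JAM2* at 165 CPM, above the 1.60 CPM of kept AT cells and near the 166 CPM of PB. Their *ALPL* level, 305 CPM, was likewise near the 326 CPM of PB and far from the 2.88 CPM of kept AT cells. Their *DES* level, 4.07 CPM (2.48 to 6.28), lay above the 0.288 CPM (0.149 to 0.504) of PB. It was far below the 204 CPM of kept AT cells.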

How the results depend on the processing

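No paired analysis was possible because each source had 1 library. The limits of these values are 1 animal and 1 library per source, 64 *JAM2* UMIs in AT and unknown removal of multiplets. The alternatives without barcodes kept in another library and without the cluster lowest in *JAM2* were chosen after seeing the data. That without cells with *HMX* or *IGFBP5* UMIs rests on genes listed with earlier results of these data known. Of 61 recomputed values of the main results 33 stayed within counting error or 1.5 times the main count, 28 moved and 0 reversed. The log2 difference of *JAM2* for BM over PB, 1.45, was 1.39 with all barcodes of at least 500 UMIs, 1.4 with no upper UMI limit, 1.73 in G1 cells, 1.22 with TMM factors, 1.56 from means of single-cell CPM, 1.59 after thinning and 1.33 with a pseudocount of 25 CPM. For BM over AT, 7.46, it was 4.55 with all barcodes of at least 500 UMIs, which takes in AT barcodes shared with PB, 7.85 in G1 cells, 7.21 after thinning and 4.18 with a pseudocount of 25 CPM. *JAM2* in AT, 1.60 CPM, was 17.6 CPM with all barcodes of at least 500 UMIs, and its log2 difference for PB over AT, 6.0, was 3.16 with these barcodes and 2.84 with a pseudocount of 25 CPM. That of *F11R* for BM over PB, 1.66, was 0.32 with this pseudocount. Restriction to barcodes found in only 1 matrix left no PB cell, so that PB has no value there. The 131 genes higher and 244 lower in JAM2-high BM cells became 255 higher for cells with against without a *JAM2* UMI, 29 and 27 in G1 cells, 20 and 43 without cells with *HMX* or *IGFBP5* UMIs, 56 and 98 among genes in at least 25% of cells, and 16 and 16 without the cluster lowest in *JAM2*. In PB the 2 higher genes became 5 with 5 bins of depth, 0 for cells with against without a *JAM2* UMI, 8 in G1 cells, where 2 were lower, and 1 among genes in at least 25% of cells. The log2 difference of *JAM2* between S or G2M and G1 in BM, −0.77, was −0.65 with phases called after thinning, −0.31 without cells with *HMX* or *IGFBP5* UMIs and −0.20 without the cluster lowest in *JAM2*. Values of r in BM that changed sign were those of *STMN1* (0.00995) and *H2AFZ* (0.00451) in G1 cells and those of *COL1A2* (−0.00291), *UBE2C* (0.00454) and *STMN1* (0.0205) when centred within clusters. The causes were not tested.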
